A study of Mus musculus with 12 samples.

Results

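The comparison described here asks how the cortical miRNA profile of mice that had drunk ethanol for a long time differs when the Toll-like receptor 4 (TLR4) is missing. It sets the 3 small RNA libraries of TLR4-KO + EtOH mice against the 3 of WT + EtOH mice, which are 6 of the 12 libraries of the study, over all 589 miRNA precursors of the deposited table. WT mice were C57BL/6J and TLR4-KO mice lack TLR4 on the same background, all were female and aged 7 weeks at the start, and both groups drank water with 10% (v/v) ethanol for 5 months with a solid diet. The other 6 libraries, WT and TLR4-KO mice of the same strain that drank plain water over the same time, gave the genotype difference without ethanol and entered the estimate of the spread. Each library came from the pooled cortex RNA of 3 mice, so that an SD given here is a spread between pools and not between mice. The knockout is germline, so that every cell of the cortex lacked the receptor, and WT and TLR4-KO mice came from different sources. Small RNA libraries hold no Tlr4 mRNA, and the genotype of a library was not checked here.

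TLR4 is a receptor of innate immunity that recognises bacterial lipopolysaccharide and signals through MyD88 and TRIF to NF-kB. In the brain it is found above all on microglia, and it is also described on astrocytes, where ethanol has been reported to engage it. miRNAs are short RNAs cut from hairpin precursors. They pair with mRNAs mainly through the seed, bases 2 to 8 of the mature strand, and lower the output of those mRNAs. A small group of miRNAs is induced by or feeds back on TLR4 and NF-kB signaling, among them miR-146a and miR-155.

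The mature strands of the precursors on which the comparison turns are shown first, 5′ to 3′, as RefSeq gives them for GRCm38.p6, with the seed in capitals. The deposited table gives 1 value per hairpin, so that it does not say which of the 2 arms was read. The first 3 precursors passed the adjusted threshold. miR-384 had the largest difference, and miR-30a is printed beneath it because miR-384-5p carries the same seed. miR-376a, miR-154 and miR-539 were the members of the Dlk1-Dio3 cluster that stood higher without overlap.
miR-3087-5p: cAGGGCAGggcaagaguugag
miR-3087-3p: uAACUCACugucauguccuca
miR-344d-3-5p: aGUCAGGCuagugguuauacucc
miR-344d-3p: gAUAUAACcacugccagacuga
miR-299a-5p: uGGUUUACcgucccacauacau
miR-299a-3p: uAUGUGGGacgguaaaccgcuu
miR-384-5p: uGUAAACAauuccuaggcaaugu
miR-30a-5p: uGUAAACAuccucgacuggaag
miR-376a-3p: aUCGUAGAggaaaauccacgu
miR-154-5p: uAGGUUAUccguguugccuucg
miR-539-5p: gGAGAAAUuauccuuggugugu

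The levels are normalized scores without a unit, and the libraries drew most of their values from a common ladder of steps, which ends at 134.8 in each of them. Of the 386 distinct values above 0 in the 12 libraries, 284 were found in at least 2 libraries and 31 in all 12. A difference is therefore a distance on that ladder and not a fold change. Read counts are not part of the table, so that the depth of a library is not known from it. A 0 means only that a precursor is listed at 0. The paper gives miRNA reads per group, fewer in TLR4-KO + EtOH than in WT + EtOH, with spreads that overlap. The part of depth in the zeros was not tested. In each of the 6 libraries compared 319 to 360 of the 589 precursors were at 0. Of the 589, 302 were above 0 in at least 1 of the 6 libraries, and 200 in all 6. The lowest step above 0 was 4.08, 5.26 and 7.29 in the 3 TLR4-KO + EtOH libraries, which had 327, 342 and 353 precursors at 0. It was 1.25, 8.17 and 11.3 in the 3 WT + EtOH libraries, which had 319, 356 and 360 at 0. The height of the lowest step thus went with the number of zeros, and differences between precursors near it also hold that offset. Libraries of the same ethanol group correlated at 0.948 to 0.984 over the precursors above 0 in any library. The lowest of these values was that of WT + EtOH replicates 1 and 3. On water the lowest was 0.947, that of TLR4-KO replicates 1 and 3.

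The profiles held hairpins of cortex cell types, and some of other tissues. The neuronal miR-124 hairpins were between 24.2 and 50.2 and mir-138-1 between 89.7 and 93.7 in all 6 libraries, whereas liver mir-122 and muscle mir-133a-1 and mir-133a-2 were listed at 0 in all of them. The oligodendrocyte hairpin mir-338 (38.1 to 49.8), the vascular mir-126a (51.1 to 60.0) and the choroid plexus mir-204 (82.4 to 93.7) were also present. Of the 15 hairpins listed for other tissues, 5 were above 0 in at least 1 of the 6 libraries and 3 in all 6. The 5 included epithelial mir-205 and pancreatic mir-375, and the median of their mean levels was 26.6. Since whole cortex was used, fewer cells of a type and less of an RNA per cell cannot be told apart in any result below.

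The comparison called 3 precursors, 0.509% of the 589 tested, at an adjusted p under 0.05 (limma over all 12 libraries, Benjamini-Hochberg): mir-3087 and mir-344d-3 were higher without TLR4, and mir-299a was lower. The split of 2 higher and 1 lower became 1 and 1 after centring on miR-181a and miR-181b, 2 and 2 by rank and 1 and 0 after a repeated quantile normalization. The unadjusted p was under 0.05 for 27 precursors, 4.58% of those tested, with 16 higher and 11 lower. The groups did not overlap for 29 of the 302 precursors above 0 in any of the 6 libraries (9.6%), with 14 higher and 15 lower. For each of these 29 the two-sided exact permutation test gave p = 0.1, the smallest value that 3 against 3 libraries allow. The median difference over the 302 was 0, and 150 were higher and 150 lower.

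mir-344d-3 is one of the hairpins of the brain-enriched miR-344 family, at chr7:61726249-61726328 (minus strand, GRCm38) in an intron of the long non-coding RNA A230057D06Rik. Its level was 19.4, 18.1 and 11.0 in the TLR4-KO + EtOH libraries and 2.72, 0 and 0 in the WT + EtOH libraries. Every library without TLR4 was above every library with it, of which only replicate 1 was above 0. The difference was 15.3 ± 2.18 (SE, adjusted p = 0.0274, limma). In replicate 3 of TLR4-KO + EtOH its value was that of 20 tied precursors on the step next to the lowest. RefSeq gives the same mature miR-344d-3p for the hairpins mir-344d-1 and mir-344d-2, so that reads of this arm cannot be assigned to 1 locus.

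mir-299a lies in the Dlk1-Dio3 cluster at chr12:109710638-109710700 (plus strand), outside annotated exons and introns of other genes. Its level was 11.1, 10.9 and 19.0 in the TLR4-KO + EtOH libraries and 29.3, 30.2 and 25.7 in the WT + EtOH libraries. All libraries without TLR4 were below all libraries with it, and replicate 3 of TLR4-KO + EtOH was the nearest to them. The difference was −14.7 ± 2.27 (SE, adjusted p = 0.0317, limma). It was also the only one of the 3 calls with a level above 0 in all 6 libraries. In the 6 libraries of mice on water it was between 24.5 and 29.9, so that the 3 TLR4-KO + EtOH libraries were the lowest of the 12.

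mir-3087 is encoded at chr2:25442779-25442834 (plus strand) in an intron of Abca2, the gene of a lipid transporter, on the same strand. It was listed at 4.08, 5.26 and 7.29 in the TLR4-KO + EtOH libraries and at 0 in the other 9 libraries of the study. The difference was 5.54 ± 0.651 (SE, adjusted p = 0.0129, limma). Each of its values was the lowest step above 0 of its library, a step held by 5, 4 and 3 precursors. The spread in its SE comes from the 3 TLR4-KO + EtOH libraries alone. The 9 libraries at 0 have no spread but count in the pooled estimate, which makes the SE smaller. With only the 6 libraries of the 2 groups the adjusted p of mir-3087 was 0.486 (limma). Among the 254 precursors above 0 in at least 3 of the 6 libraries the adjusted p of mir-3087 was 0.0776 (limma).

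mir-384, a brain miRNA encoded on the X chromosome (chrX:105344282-105344369, minus strand), had the largest difference of the 302 precursors. It was at 52.7, 41.0 and 38.8 in the TLR4-KO + EtOH libraries and at 19.5, 24.0 and 29.6 in the WT + EtOH libraries. The groups did not overlap, the nearest pair being the third replicates. The difference of 19.8 ± 4.04 (SE) missed the threshold over the 589 precursors (adjusted p = 0.156, limma). It passed over the 254 precursors above 0 in at least 3 of the 6 libraries (adjusted p = 0.0407) and over the 200 above 0 in all 6 (adjusted p = 0.0470, a filter chosen after the data were seen). Without TLR4-KO + EtOH replicate 1, the highest of its group, the difference was 15.6.

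**Figure D1:**
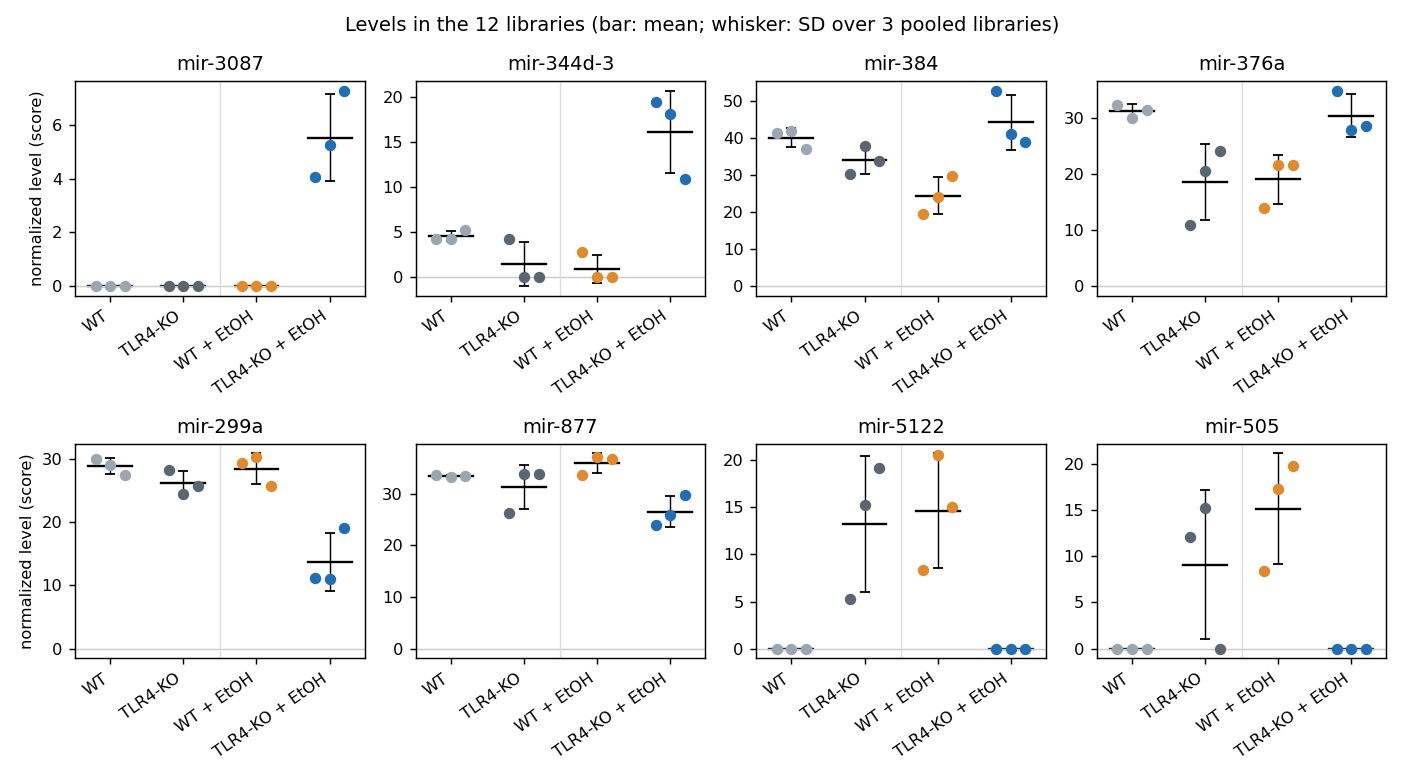
Normalized level (score) of 8 precursors in the 12 libraries, 3 pooled libraries per group, with the mean (bar) and SD (whisker). The TLR4-KO + EtOH libraries lie above the WT + EtOH libraries for mir-3087, mir-344d-3, mir-384 and mir-376a and below them for mir-299a, mir-877, mir-5122 and mir-505.

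Of the 200 precursors above 0 in all 6 libraries, 15 did not overlap between the groups (7.5%), 7 higher and 8 lower without TLR4. The higher ones, by 5.07 to 19.8, were mir-384, mir-376a, mir-3057, mir-6236, mir-6769b, mir-194-1 and mir-154. The lower ones, with differences of −14.7 to −2.97, were mir-299a, mir-877, mir-296, mir-29b-2, mir-674, mir-5103, mir-666 and mir-383. Among these, mir-877, which is spliced out of an intron of Abcf1, was at 24.0, 25.8 and 29.8 without TLR4 and at 33.7, 37.2 and 36.8 with it. The difference of mir-877 was −9.33 ± 2.24 (SE), and it did not pass (adjusted p = 0.245, limma). mir-674 was at 38.6, 38.3 and 38.8 without TLR4 and at 46.9, 44.6 and 45.0 with it. Both groups of mir-674 were tight, and the adjusted p was 0.732 (limma). mir-383 had the highest mean level of the 15, with 81.1, 80.6 and 76.8 against 83.7, 82.4 and 81.6, so that replicate 1 without TLR4 lay just under replicate 3 with it.

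A further group of precursors was above 0 in all 3 libraries of one group and at 0 in all 3 of the other. There were 6 with values in TLR4-KO + EtOH only: mir-3087, mir-137, mir-539, mir-326, mir-574 and mir-714. There were 7 with values in WT + EtOH only: mir-505, mir-5122, mir-3470b, mir-879, mir-455, mir-764 and mir-6948. With above 0 in at least 2 of the 3 libraries as the rule, the numbers were 11 and 11. All of their levels were low, between 2.72 and 20.5, and many were tied. mir-137, a neuronal miRNA encoded in an exon of Gm26871, and mir-539 both had 8.5, 14.5 and 17.5. mir-326, encoded in an intron of Arrb1, had 4.54, 7.27 and 11.0, as had mir-574 and mir-714. mir-505, mir-3470b and mir-879 all had 8.39, 17.2 and 19.8, and mir-455, mir-764 and mir-6948 all had 2.72, 10.9 and 11.3. Equal values mean that these precursors stood on the same step in each library, so that they are not separate measurements of the size of a difference. Of these precursors mir-3087 alone passed the adjusted threshold, and the next smallest adjusted p was that of mir-326 (0.164, limma).

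**Figure D2:**
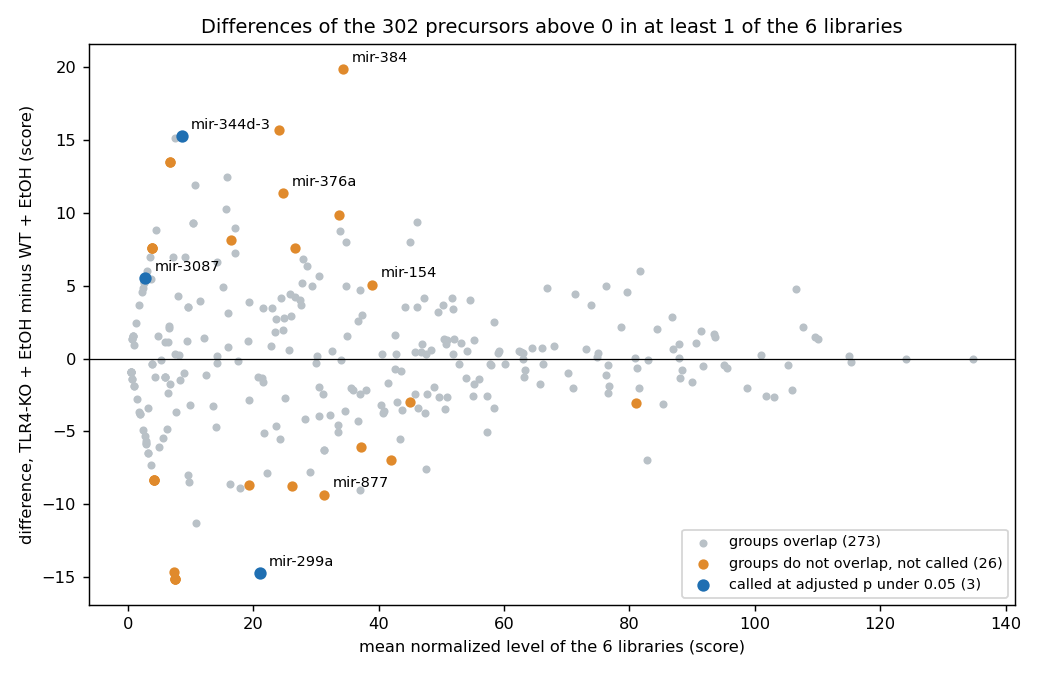
Difference between TLR4-KO + EtOH and WT + EtOH (score) against the mean level of the 6 libraries, 1 point per precursor for the 302 above 0 in any of the 6 libraries. The 3 called precursors have mean levels of 2.77, 8.54 and 21.0, and the only precursor without overlap in the upper part of the range is mir-383 with a mean level of 81.0.

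The Dlk1-Dio3 cluster is a long imprinted array of miRNA genes on chromosome 12, expressed from the maternal chromosome and rich in neuronal miRNAs. The table holds 51 of its hairpins, 50 taken by name and mir-3544 added by position, and those with a position span 184 kb. Of these, 39 were above 0 in any of the 6 libraries, with 20 higher, 19 lower and a median difference of 0.53 beside 0 over all precursors. The median changed sign when the libraries were centred on miR-181a and miR-181b (−0.66), and it ranged from −0.62 to 1.46 when 1 ethanol library was left out, with −0.62 in the absence of TLR4-KO + EtOH replicate 3 and −0.29 in that of replicate 2. mir-299a was called (0.509% of all 589). An unadjusted p under 0.05 was reached by another 7 of the 39, all higher, beside 27 of the 302 precursors above 0 (4.58% of the 589). Of the 39, 5 (12.8%) did not overlap, 3 higher and 2 lower, beside 9.6% of the 302. The mean level of the 51 was 26.7 to 27.5 without TLR4 and 25.9 to 26.6 with it, and the groups did not overlap in this mean. After the same centring they did, with 25.4 to 26.9 against 26.3 to 27.2.

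The nearest neighbours of mir-299a were not lower. mir-411, the next hairpin upstream, was at 90.3, 83.7 and 79.9 without TLR4 and at 77.3, 79.9 and 78.8 with it. mir-411 overlapped only by the value 79.9 that 2 libraries shared. The difference of mir-411 was 5.98 ± 2.61 (SE, unadjusted p = 0.0497, limma). mir-380, the next hairpin of the table downstream, was at 44.6, 37.2 and 34.8 against 33.1, 36.8 and 37.8, and these groups overlapped. mir-299b, on the opposite strand of the mir-299a hairpin, was listed at 0 in all 6 libraries.

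mir-376a was at 34.8, 27.7 and 28.5 without TLR4 and at 13.9, 21.5 and 21.5 with it, with no overlap (difference 11.3 ± 3.62, SE, adjusted p = 0.602, limma). mir-376b, which shares the array with it, was at 29.5, 34.1 and 31.9 against 25.4, 31.2 and 24.0. The groups of mir-376b overlapped by 1 library. mir-154 was at 43.3, 42.1 and 38.8 against 34.8, 38.2 and 36.0, a difference of 5.07 ± 2.04 (SE, unadjusted p = 0.0369, limma). mir-382 was at 55.0, 51.5 and 45.7 against 38.6, 39.4 and 46.2, and here 1 library of each group crossed. mir-134, known for its action on dendritic spines through Limk1, was at 40.0, 33.2 and 40.5 against 32.3, 35.3 and 38.4. mir-127, one of the most abundant members, was at 74.0, 66.0 and 67.7 against 62.0, 66.0 and 65.1. The most abundant members, mir-541 (difference −0.13 ± 1.91, SE) and mir-411, stood on the upper steps of the ladder. In mir-376a, mir-154, mir-382, mir-411 and mir-127 TLR4-KO + EtOH replicate 1 had the highest value of the 6 libraries. Without that library the differences of mir-376a and mir-154 were 8.80 and 4.12.

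**Figure D3:**
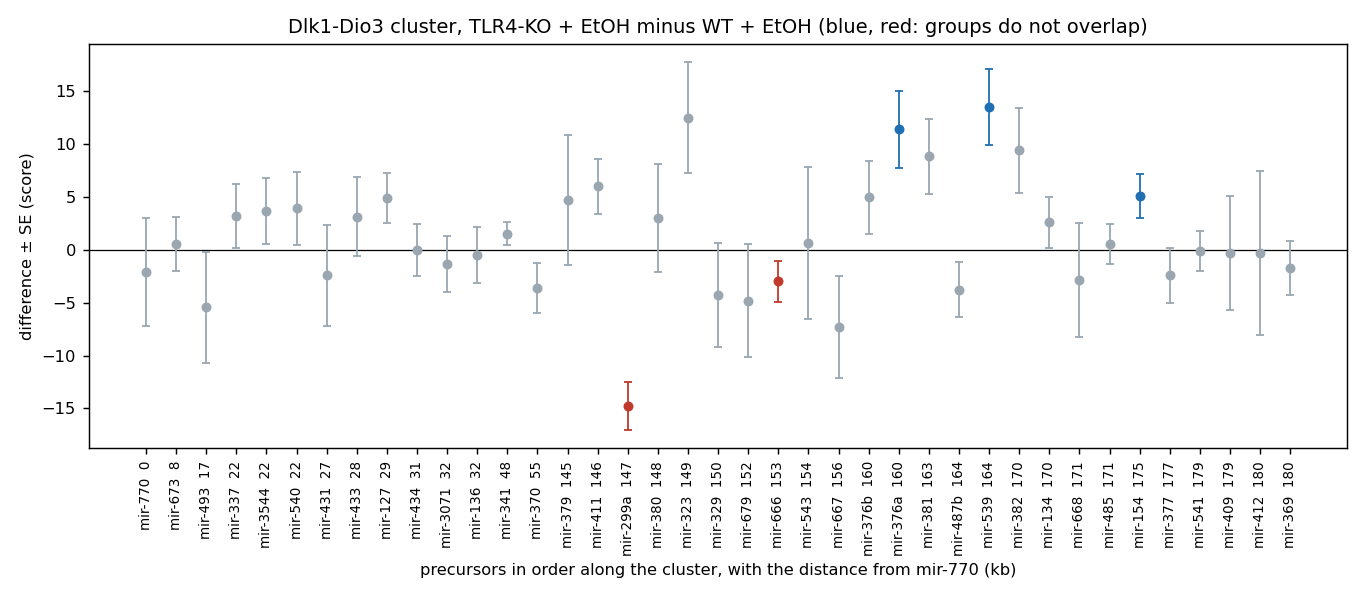
Difference between TLR4-KO + EtOH and WT + EtOH (score, ± SE from limma) of the 39 Dlk1-Dio3 hairpins above 0 in any of the 6 libraries, in their order along the chromosome, with the distance from mir-770 in kb. mir-299a at 147 kb lies at −14.7 between mir-411 at 5.98 and mir-380 at 2.96, and the members on both sides are spread around 0.

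miRNAs tied to TLR4 and NF-kB signaling did not pass the test. Of the 13 members listed, 11 were above 0. None was called (0.509% of the 589) and none was free of overlap (9.6% of the 302). None had an unadjusted p under 0.05, which 27 of the 302 above 0 reached (4.58% of the 589). With so few members these counts do not set the list apart from all precursors. Their median difference was 1.61, with 8 higher and 3 lower, and leaving out 1 ethanol library gave −0.38 (WT + EtOH replicate 1) to 3.23 (WT + EtOH replicate 3). mir-146a, which NF-kB induces and which acts on TRAF6 and IRAK1, was at 58.3, 46.4 and 42.1 without TLR4 and at 37.8, 42.5 and 42.5 with it. Replicates 1 and 2 without TLR4 were above all libraries with it and the third was among them, and the difference was 8.01 ± 4.10 (SE, unadjusted p = 0.0853, limma). mir-146b was at 42.5, 47.9 and 50.2 against 42.5, 47.1 and 49.8, almost the same values. mir-155 and mir-223, which mark activated macrophages and myeloid cells, were listed at 0 in all 6 libraries.

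mir-21a was at 40.6, 44.8 and 44.7 without TLR4 and at 37.8, 42.5 and 45.0 with it. mir-132, a CREB-driven miRNA, was at 61.0, 51.1 and 48.5 against 47.4, 47.9 and 55.1. The groups of both overlapped. let-7e and let-7i, which have been reported to act on TLR4 itself, differed by 5.00 ± 2.57 and 4.45 ± 4.69 (SE). let-7e was at 83.3, 78.0 and 74.8 against 70.6, 76.0 and 74.5, so that only replicate 3 of TLR4-KO + EtOH lay within the range of WT + EtOH. The 3 mir-9 hairpins, which share their mature strand, differed by −1.30 to 0.02, and mir-125b-1 and mir-125b-2 by 2.14 and −0.21. The levels of mir-125b-2 were 115.5, 115.5 and 114.9 against 115.5 in all WT + EtOH libraries, 1 step of the ladder apart at most.

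In the large families of the cortex profile no member was called. The 13 let-7 family hairpins had a median difference of 0.22, the 7 of the miR-30 family 0.45 and the 6 of the miR-181 family 1.51. When 1 ethanol library was left out these medians ranged from −0.25 to 1.07, from −0.43 to 2.23 and from 0.52 to 2.03, the lowest of the miR-181 family being that without WT + EtOH replicate 1. The groups overlapped for every member, beside the 9.6% of all precursors without overlap. The miR-30 family shares its seed with miR-384-5p, and its hairpin mir-30a was at 89.7, 96.6 and 98.3 without TLR4 and at 91.0, 96.6 and 98.3 with it, while mir-384 stood apart. mir-181a-1 and mir-181a-2 had the same value, 134.8 and 124.0, in all libraries, being the top steps of the ladder. mir-181b-1 and mir-181b-2 were higher by 2.84 and 1.92 on average without TLR4. Centring the libraries on these 4 hairpins therefore lowered every difference by the same 1.19. The medians of the let-7, miR-30 and Dlk1-Dio3 lists, of the miR-183 and miR-200 list and of the choroid plexus list changed sign under that scaling, so that no direction is given for them.

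In the miR-344 family mir-344b, which shares the seed GUCAGGC with miR-344d-3-5p on its 5p arm, was at 13.7, 18.1 and 20.8 without TLR4 and at 35.5, 0 and 17.6 with it. The WT + EtOH libraries of mir-344b spanned the whole range of the other group, and mir-344h-1 and mir-344h-2 were listed at 0. The only call among the 4 members is thus mir-344d-3, described above, 2 of the 4 being at 0 throughout, beside 0.509% of all precursors. The miR-183 cluster, transcribed as 1 unit in sensory and neuronal cells, varied widely within WT + EtOH. mir-183 was at 78.0, 65.6 and 33.4 there and at 59.7, 60.2 and 58.6 without TLR4. mir-182 was at 91.7, 75.6 and 48.6 in WT + EtOH and at 81.6, 72.7 and 72.7 without TLR4. The TLR4-KO + EtOH libraries of both lay inside the range of WT + EtOH, with differences of 0.51 ± 9.82 and 3.70 ± 10.1 (SE). Of the 7 hairpins listed for the miR-183 cluster and the miR-200 family, 3 were above 0 and 4 at 0 in all 6 libraries. None was called and none was free of overlap, beside 0.509% and 9.6% of all. The medians of this list are those of the 3. Without WT + EtOH replicate 3 the median of the list went from 0.51 to −7.96, and without replicate 1 to 9.99. On water, where the other 6 libraries give the genotype difference, the median of this list was −31.0.

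Among lists that stand for cell types, that of red blood cells had all 5 members lower without TLR4, none called. mir-451a, which is matured without Dicer in red blood cells, was at 24.5, 27.7 and 31.9 without TLR4 and at 31.7, 35.3 and 36.0 with it, so that 1 library of each group crossed by a narrow margin. Its difference was −6.27 ± 2.63 (SE, unadjusted p = 0.0429, adjusted p = 1, limma). mir-451b, placed on the opposite strand of the same bases, had identical values and is no second measurement. mir-486a, the other abundant red blood cell miRNA, was at 102.3, 106.4 and 106.4 against 102.3, 107.8 and 106.4. The mean level of the 5 was 48.8 to 54.5 without TLR4 and 55.6 to 56.1 with it, and none of the 5 was at 0 in all 6 libraries. The groups did not overlap in this mean, also after centring (46.9 to 54.6 against 55.4 to 57.0). The means of the leukocyte and Dlk1-Dio3 lists did not overlap either, but they did after centring, and the part of blood in the results above was not tested.

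Leukocyte and microglial hairpins had a median difference of −4.45 over the 4 of 6 above 0, with none called and none free of overlap, beside 0.509% and 9.6% of all. mir-142a, present in all blood leukocytes and in microglia, was at 29.9, 29.2 and 38.2 without TLR4 and at 55.5, 28.3 and 40.5 with it. mir-342 was at 22.4, 24.5 and 28.5 against 33.4, 38.2 and 27.1, and mir-150 at 74.8, 76.0 and 76.0 against 74.1, 76.8 and 79.4. The mean level of the 6 was 21.6 to 23.8 without TLR4 and 23.9 to 27.2 with it, and after centring 20.1 to 23.9 and 23.6 to 28.5, 2 of them, mir-223 and mir-155, being at 0 throughout. The median was −2.22 without WT + EtOH replicate 1, in which mir-142a had its highest value.

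Of the 15 neuron-enriched hairpins none was called, and the median difference was −0.85, which moved to −0.21 when WT + EtOH replicate 3 was left out and to −0.25 when TLR4-KO + EtOH replicate 2 was. Only mir-137 did not overlap, 6.67% of the list beside 9.6% of all. The 3 oligodendrocyte hairpins were all lower without TLR4, with a median of −1.41 that became 0 without WT + EtOH replicate 1 and −3.16 without replicate 3, and mir-338 as the most abundant was at 45.2, 40.4 and 41.2 against 49.8, 41.0 and 38.1. mir-219a-2, the hairpin of the oligodendrocyte miRNA miR-219a, was at 0 in all libraries without TLR4 and at 13.9, 0 and 11.3 with it (unadjusted p = 0.0213, limma). Vascular and choroid plexus hairpins had medians of 1.29 and 0.91, with no call and no member free of overlap, beside 9.6% of all. The vascular median moved to 0.35 and 2.59 when WT + EtOH replicates 1 and 3 were left out in turn, and to 3.01 and −0.01 for TLR4-KO + EtOH replicates 1 and 3. The choroid plexus median changed sign on leaving out replicate 3 of WT + EtOH (−1.02) or of TLR4-KO + EtOH (−0.31). In the list of other tissues, 10 of 15 were at 0, and the difference of the other 5 was above 0 for each, with a median of 5.53. Leaving out TLR4-KO + EtOH replicates 1, 2 and 3 in turn gave 2.63, 1.38 and 8.30. None of the 5 was called, and mir-194-1, an intestinal and hepatic miRNA, was the only one that did not overlap, beside 9.6% of all (36.8, 26.8 and 27.6 against 17.6, 25.2 and 25.7). The hairpins of the Sfmbt2 cluster, a rodent array of near-identical copies, were at 0 for 34 of 48 and low for the rest. Their values share reads between copies and are uncertain. The median difference of this cluster was −1.26 and became 5.24 without WT + EtOH replicate 1, in which most of its members had their highest value of the 6 libraries.

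**Figure D4:**
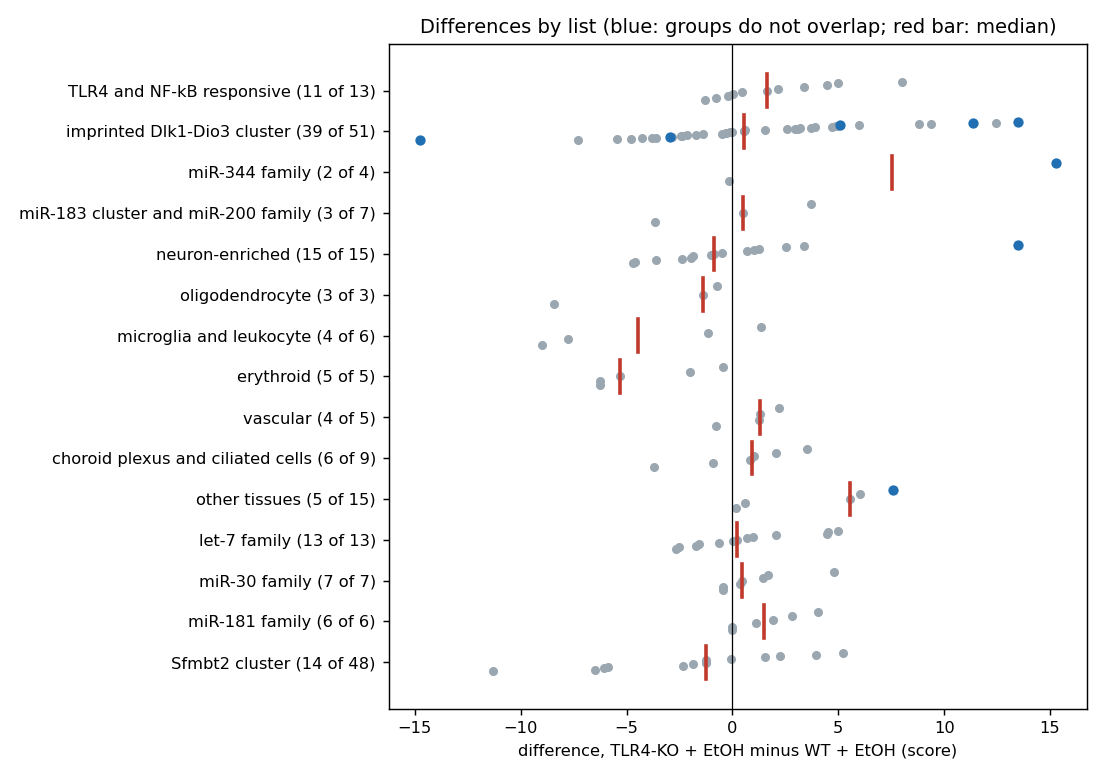
Difference between TLR4-KO + EtOH and WT + EtOH (score) of each list member above 0 in any of the 6 libraries, with the median as a red bar and the members above 0 of all members in brackets. The red blood cell list lies below 0, and the members free of overlap (blue) are in the Dlk1-Dio3, miR-344, neuron-enriched and other-tissue lists.

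The same question was put to the mice on water, TLR4-KO against WT, whose libraries are all different from those above. Over the 190 precursors above 0 in all 12 libraries the genotype differences with and without ethanol had a Pearson r of −0.0721 and a Spearman rho of −0.122. This describes precursors, which are not independent of each other, and carries no test. Of the 27 precursors with an unadjusted p under 0.05 with ethanol, 12 had the same sign without it, 13 the opposite sign and 2 a difference of 0. Over the 200 precursors above 0 in all 6 ethanol libraries the differences between the genotypes had an SD of 4.37 with ethanol and of 7.31 without it. This filter did not look at the libraries of mice on water, and 190 of the 200 were above 0 in all 12. The median SD of 3 libraries was 3.68 in WT + EtOH and 3.45 in TLR4-KO + EtOH. That of the groups on water is not given, and whether the genotype differences spread more on water was not tested.

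In all, 7 precursors, 1.19% of the 589, had a genotype difference with ethanol that was itself different from that without ethanol (limma, adjusted p under 0.05), among them mir-344d-3 and mir-3087. mir-344d-3 was at 4.20, 0 and 0 in TLR4-KO and at 4.20, 4.23 and 5.23 in WT mice on water, a difference of −3.15, and the 2 differences were 18.4 apart (adjusted p = 0.0280). For mir-3087 they were 5.54 apart (adjusted p = 0.0280), since it was at 0 without ethanol. mir-299a differed by −2.67 without ethanol, and its 2 differences were 12.1 apart, which did not pass (adjusted p = 0.144) except without TLR4-KO + EtOH replicate 3 (0.0219). mir-384 was at 30.3, 37.8 and 33.8 in TLR4-KO and at 41.3, 41.8 and 37.0 in WT mice on water, a difference of −6.07 opposite in sign to that with ethanol. The 2 differences of mir-384 were 25.9 apart, which did not pass (adjusted p = 0.0713). It passed in 5 of the 21 other settings, namely after centring, with each of the 3 filters on low values and with the trended, robust variance model (adjusted p of 0.00453 to 0.173 over the 21). mir-384 was named for its difference in these same values, so that these passes are no support for it.

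There were 3 precursors that did not overlap in either comparison of the genotypes, and all 3 went in opposite directions. mir-376a was lower in TLR4-KO than in WT without ethanol (10.9, 20.5 and 24.0 against 32.3, 29.8 and 31.4) and higher with it. mir-5122 was at 5.23, 15.3 and 19.2 in TLR4-KO and at 0 in WT on water, and with ethanol at 0 without TLR4 and at 8.39, 20.5 and 15.0 with it. mir-666 was higher in TLR4-KO without ethanol (52.7, 47.1 and 47.4 against 37.4, 43.1 and 40.9) and lower with it (43.1, 46.0 and 41.5 against 46.4, 46.3 and 46.7). In none of the 3 did the test of the difference of differences pass over the 589 precursors (adjusted p of 0.0686, 0.0511 and 0.0809, limma). mir-376a passed in 5 of 21 other settings (adjusted p of 0.0343 to 0.160), mir-5122 in 7 of 20 (2.16e-06 to 0.128) and mir-666 in none of 21 (0.0501 to 0.284). The 3 were picked for opposite directions in these same values, so that such passes are no support for them. Both mir-376a and mir-5122 passed after centring, with the filters that kept 285 and 254 precursors and with the trended, robust model. mir-5122 entered the filter of 254 only through the WT + EtOH libraries. mir-5122 also passed by rank and when either WT + EtOH replicate 1 (0.0340) or TLR4-KO replicate 1 (0.0125) was left out. No precursor was free of overlap in both comparisons in the same direction.

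**Figure D5:**
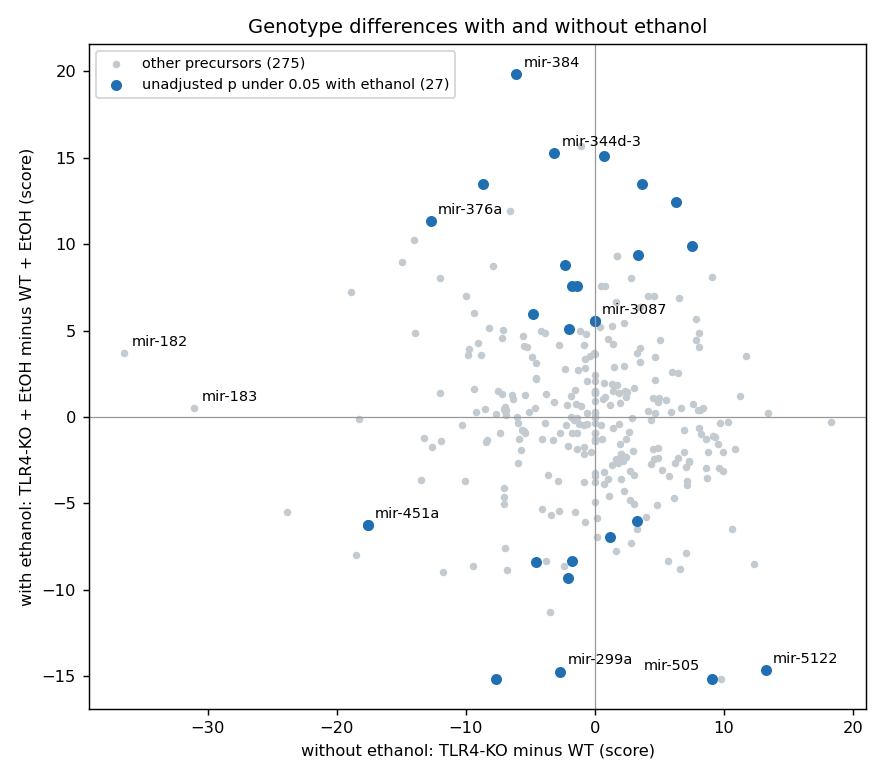
Genotype difference with ethanol (vertical, TLR4-KO + EtOH minus WT + EtOH, score) against that without ethanol (horizontal, TLR4-KO minus WT, score), 1 point per precursor for the 302 above 0 in any of the 6 ethanol libraries. The 27 with an unadjusted p under 0.05 with ethanol lie on both sides of the vertical zero line, and mir-182 and mir-183 are far to the left at a vertical value near 0.

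The 3 calls rest on small groups. The prior of limma had 0.308 degrees of freedom, so that the spread of each precursor was hardly shared with others. With the 6 libraries of the 2 groups alone none was called (limma, 25 at an unadjusted p under 0.05), and none was called without WT + EtOH replicate 3 (32) or without TLR4-KO + EtOH replicate 2 (24). The directions of all 3 were the same in every setting in which they were tested, but the 3 were selected on these same values. mir-299a stayed under the threshold in 1 of the 12 settings that left out a library, mir-344d-3 in 2 and mir-3087 in 10. Most of these settings removed a library in which mir-3087 was at 0. In the other settings mir-299a stayed under it in 6 of 10, mir-344d-3 in 6 of 9 and mir-3087 in 3 of 9.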

How the data were processed

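Small RNA of mouse cortex was sequenced in 12 libraries, 3 per group, each from a pool of 3 mice. According to the labels and the Methods, reads were trimmed with cutadapt, mapped to non-coding RNA databases with Bowtie2 2.2.5 and TopHat (build GRCm38), filtered and counted per precursor. The deposited table holds 589 precursors as a score made by the authors. The score is not whole and keeps 0 at 0, and in each library 76.0% to 92.7% of the values above 0 recur in another library, as quantile normalization can give, whereas the Methods name trimmed mean of M values with edgeR. Since no counts were used, the depth of a library was not taken into account and no count model was run. The number of libraries limits the precision.

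limma 3.58.1 (R 4.3.3) was fitted to the deposited values of all 12 libraries with 1 mean per group and no covariate. Its contrasts were TLR4-KO + EtOH minus WT + EtOH, TLR4-KO minus WT, and the difference of both, with Benjamini-Hochberg adjustment over the 589 and a threshold of 0.05. It was tested on simulated normal values, which hold neither the shared steps of these scores nor precursors at 0 in some groups only. Exact permutation tests, counts and figures used Python 3.11.15 with numpy 2.4.6, pandas 2.3.3, scipy 1.17.1 and matplotlib 3.10.9. No overlap means that all libraries of one group lie above all of the other. P-values measure the spread between pools.

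Named are called precursors, the 12 with the smallest p in each direction above 0 in any of the 6 libraries, the 3 with the smallest p and the 3 with the highest mean of each list, all TLR4 and NF-kB and miR-344 members, and the 5 with the highest mean. Any other was chosen after its values were seen. Members and lists were chosen with earlier results of these data known. Positions are from GENCODE M21 (558 of 589 matched) and sequences from RefSeq (GRCm38.p6, 78 of 92 named precursors matched). Alternatives were the 6 libraries alone, other scalings, filters on low values, another variance model, merging of equal precursors, a replicate block and leaving out each library.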

Additional observations from a re-analysis of the deposited data

Results flagged for a closer look

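For 7 precursors the genotype difference with ethanol differed from that without it by the test of this difference (limma, Benjamini-Hochberg over 589). The difference with ethanol minus that without it was 18.4 for mmu-mir-344d-3, 5.54 for mmu-mir-3087 and 4.56 for mmu-mir-6952. The value of mmu-mir-6952 is only of the size of low steps of the WT libraries on water (4.20, 4.23 and 5.23), where levels are the least certain. It was −4.43 for mmu-mir-125a, −4.56 for mmu-mir-125b-2, −9.93 for mmu-mir-351 and −11.9 for mmu-mir-744. mmu-mir-3087 and mmu-mir-344d-3 were apart with ethanol, and the others of the 7 were not called in the comparison with ethanol. The levels of mmu-mir-125b-2 with ethanol, given above, were nearly equal in both groups, so that its value comes mostly from the mice on water. In mmu-mir-744 the libraries were at 79.9, 79.9 and 81.6 (TLR4-KO + EtOH) against 80.6, 81.6 and 85.2 (WT + EtOH), and at 87.7, 84.6 and 84.6 (TLR4-KO) against 75.6, 76.0 and 75.6 (WT). In mmu-mir-351 they were at 63.0, 62.3 and 62.3 against 64.6, 62.3 and 64.6 with ethanol, and at 65.1, 63.0 and 65.6 against 58.8, 55.1 and 53.9 without it.

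mmu-mir-376a, mmu-mir-5122 and mmu-mir-666 had groups that did not overlap in either genotype comparison, in opposite directions. With ethanol their differences were 11.3, −14.6 and −2.97, and without it −12.7, 13.2 and 8.60. The test of the difference between the 2 did not pass for any of them over the 589 precursors (adjusted p of 0.0686, 0.0511 and 0.0809, limma). Over the other settings it passed for mmu-mir-376a in 5 of 21, for mmu-mir-5122 in 7 of 20 and for mmu-mir-666 in none of 21. Since the 3 were picked from the same values, these counts are no support for them. Opposite signs were also frequent among the 302 precursors above 0 in any of the 6 ethanol libraries, with 153 opposite and 125 the same.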

How the results depend on the processing

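Between TLR4-KO + EtOH and WT + EtOH 3 precursors were called, and the number was 0 with only the 6 libraries of the 2 groups, 1 with a repeated quantile normalization (mir-344d-3) and 1 with a trended, robust variance model (mir-384, none of the 3). Leaving out 1 library gave 0 to 3. Rank within the library gave 4, of which 2 were among the 3, and both filters on low values gave 3, with mir-384 in place of mir-3087. The number for the difference of the genotype effects was 7, and it was 2 to 15 when 1 library was left out, 2 without TLR4-KO + EtOH replicate 2 and 15 without WT + EtOH replicate 1. With the trended, robust model it was 9, of which 2 were among the 7. Centring on miR-181a and miR-181b gave 12 (4 of the 7), the filters that kept 285 and 254 precursors 13 and 12 (3 of the 7 each), and rank 7 (2 of the 7). No direction of the 24 precursors ranked by p was reversed by any setting. The 24 were picked from these same values as the 12 with the smallest p in each direction, so that a kept direction is no support for them. The number of precursors above 0 in all 3 libraries of one group and at 0 in the other, 6 and 7, was 11 and 11 with at least 2 of 3 libraries.

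With the replicate number as a block, 2 of the 3 precursors were called, mir-299a being lost (adjusted p = 0.184, limma), and 3 of the 7 for the difference of the genotype effects. The labels do not say that equal numbers share a source, so that the numbers were not taken as pairs. The deviations of equally numbered libraries of the 2 groups from their group means correlated at 0.208, 0.0583 and 0.0793. Those of differently numbered libraries correlated at −0.170 to 0.132. Whether the numbers mark a batch was not tested. The depth of a library was not taken into account, and levels near the lowest step above 0 are the least certain.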
